A study of Mus musculus with 20 samples.

Results

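The genes described here encode the machinery that folds proteins in the endoplasmic reticulum (ER) and that removes those which fail to fold. They are 38 genes chosen by name, 7 chaperones and lectins, 8 disulfide enzymes and related proteins, 6 co-chaperones of Hspa5, 4 translocon components, 10 components of ER-associated degradation and 3 stress sensors or transcription factors. All 38 were among the 24062 genes counted in mouse lung, and all 38 passed the filter on low counts that left 15766 genes for testing. In the lungs of mice that lacked arginase 2 and lived in hypoxia, 26 of the 38 were higher than in wild type mice in hypoxia and 21 were higher than in knockout mice in room air. Many other genes differed too: 11.0% and 7.93% of all tested genes were higher in these comparisons, and 12.1% and 9.10% lower. In wild type mice none of the 38 was called higher in hypoxia when all samples were used, where 2.67% of all tested genes were.

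Secreted and membrane proteins enter the ER through the Sec61 translocon and are folded there by the Hsp70-type chaperone Hspa5 (BiP), by Hsp90b1 (Grp94) and by the lectins calnexin and calreticulin, while protein disulfide isomerases and their Ero1 oxidases form disulfide bonds. Proteins that stay unfolded are sent back to the cytosol and degraded, and a load of unfolded protein is sensed by Ire1 (the product of Ern1), Atf6 and Perk. These sensors activate the transcription factors Xbp1, Atf6 and Atf4, which raise the chaperone and degradation genes in what is called the unfolded protein response. In the lung, type II epithelial cells, which secrete surfactant, and plasma cells, which secrete antibody, depend on this machinery.

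The RNA came from whole lungs of adult male and female mice, 8 to 10 weeks old, of a mixed C57/129 strain, which were either wild type (Arg2+/+) or lacked the arginase 2 gene (Arg2-/-). Mice of each genotype lived for 28 days in 21% oxygen (room air) or in 10% oxygen (hypoxia), which gave 4 groups of 4 samples. Arginase 2 is a mitochondrial enzyme that splits arginine, and the study asked how its loss affects pulmonary hypertension caused by chronic hypoxia. The labels do not give the sex of each mouse, whether samples came from separate litters, or which part of the gene is deleted. P-values therefore measure the spread between these samples, and in whole lung fewer cells of a type and less RNA per cell cannot be told apart.

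Between 9531270 and 63331530 reads per sample were counted in genes. Levels are given as CPM (counts-per-million), relative to the reads in genes after TMM scaling of library sizes. A count of 0 would allow at most 0.315 CPM (3 counts) in the smallest sample. The targeted gene Arg2 ranged from 6.33 to 11.8 CPM in the 8 wild type samples and from 3.22 to 7.78 CPM in the 8 knockout samples, so that its reads were fewer but not absent in the knockout and the ranges overlapped. Lung epithelial markers summed to between 31926 and 42262 CPM in all 16 samples. Wild type room air sample 3 stood apart, with the fewest reads and with 25.4% of its reads in genes, against 35.5% to 64.2% in the other 15, and results that turn on it are given with and without it. Samples 1 and 2 of the knockout hypoxia group held the most RNA of pancreatic enzymes and samples 3 and 4 of the knockout room air group held RNA of thymocyte genes, and counts are given without those as well. Sample 3 of knockout hypoxia held less pancreatic RNA (31.9 CPM in sum, against at most 16.1 CPM in the other groups) and stayed in those counts.

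Many genes of this machinery carry the ER stress element in the promoter, read by Atf6 together with the factor NF-Y. The stretch from 250 bases before to 50 bases after the gene start was found in RefSeq (GRCm38.p6) for 31 of the 38 genes. The table held none for Hyou1, Manf, Sil1, Sec61a1, Ssr2, Derl1 and Atf6. The element was searched as CCAAT, 9 bases of any kind, then CCACG, on both strands. It was present in 10 of the 31 promoters (32.3%) and in 35 of 27025 promoters of all genes (0.13%). A second form, ATTGG, 1 base, then CCACG, was present in 2 of the 31, Dnajb11 and Herpud1, and in 10 of all promoters (0.037%). A further motif, the unfolded protein response element (TGACG followed by TGG), was found in 0 of the 31 and in 164 of all promoters (0.607%). The first 2 forms did not occur in the same one of the 31 promoters. At least 1 of the 3 was found in 11 of the 23 searched promoters of genes that were higher in knockout than wild type hypoxia, and in 1 of the 8 others. A match is a description of letters, and binding was not measured.

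The following stretches, each written 5′ to 3′ in the direction of the gene, are shown because they belong to genes that were higher in knockout than wild type hypoxia or, for Syvn1, not called there. Capitals mark the matched element with the bases between its parts. A stretch whose capitals begin with CGTGG holds the element on the opposite strand. Those of Hspa5 (chr2:34772013-34772055, plus strand), Creld2 (chr15:88819508-88819550, plus), Ero1lb (chr13:12565670-12565712, plus), Pdia6 (chr12:17266479-17266521, plus), Dnajc3 (chr14:118937815-118937857, plus), Derl3 (chr10:75893230-75893272, plus), Herpud1 (chr8:94386365-94386399, plus) and Syvn1 (chr19:6046520-6046562, plus) read:
Hspa5: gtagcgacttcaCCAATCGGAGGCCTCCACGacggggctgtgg
Creld2: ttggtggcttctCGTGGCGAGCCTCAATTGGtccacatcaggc
Ero1lb: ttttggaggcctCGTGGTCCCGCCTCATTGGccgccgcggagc
Pdia6: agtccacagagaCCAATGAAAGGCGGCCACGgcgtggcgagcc
Dnajc3: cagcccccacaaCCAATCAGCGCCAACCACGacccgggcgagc
Derl3: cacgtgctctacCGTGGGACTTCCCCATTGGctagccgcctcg
Herpud1: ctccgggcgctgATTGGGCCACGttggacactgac
Syvn1: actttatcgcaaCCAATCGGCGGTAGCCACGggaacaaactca
Positions are counted from the gene start of the RefSeq table, which for Hspa5 is base 34772090 and lies inside the longer GENCODE span of the gene given below. In Hspa5 the element lay from position -65 to -47, in Creld2 from -126 to -108, in Syvn1 from -44 to -26, and in Herpud1 the shorter form lay from -52 to -42. The element was therefore present both in genes whose RNA was high in knockout hypoxia and in Syvn1, whose RNA was not called there.

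Each comparison was tested with edgeR's quasi-likelihood test on all 15766 genes, with 4 samples a group and Benjamini-Hochberg adjusted p under 0.05 as the call. In wild type mice, hypoxia left 0 of the 38 genes higher and 2 lower, where 2.67% of all tested genes were higher and 2.31% lower. At an unadjusted p under 0.05, 3 of the 38 were higher and 4 lower there, against 16.3% of all genes in either direction, and DESeq2 called 0 higher and 3 lower, against 7.22%. In knockout mice, hypoxia raised 21 (55.3% of the 38) and lowered 1, where 7.93% of all genes were higher and 9.10% lower. Between genotypes in room air 0 of the 38 were called, where 0.0571% of all genes were higher and 0.0190% lower in knockout mice. At an unadjusted p under 0.05, 15 of the 38 differed there, against 21.6% of all genes, and DESeq2 and limma voom called 6 each, all higher, against 6.38% and 6.18% of all genes called in either direction. Between genotypes in hypoxia 26 (68.4%) were higher in knockout mice and 1 lower, where 11.0% of all genes were higher and 12.1% lower. The effect of hypoxia itself differed between the genotypes for 5 (13.2%), all more positive in knockout mice, where 0.279% of all genes were more positive and 0.222% more negative. The hypoxia effect had a median over the 38 genes of 0.00 in wild type and 0.39 in knockout mice (log2 fold change), and the genotype difference one of 0.13 in room air and 0.54 in hypoxia, while the median of all tested genes lay between -0.02 and 0.00. The comparisons share groups, so the knockout hypoxia samples enter both of those with many calls. Of the 38 genes, 19 were higher in both, 2 only against knockout room air, 7 only against wild type hypoxia, and 8 were called in neither. The remaining 2, Sil1 and Ern1, were each lower in 1 comparison.

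**Figure D1:**
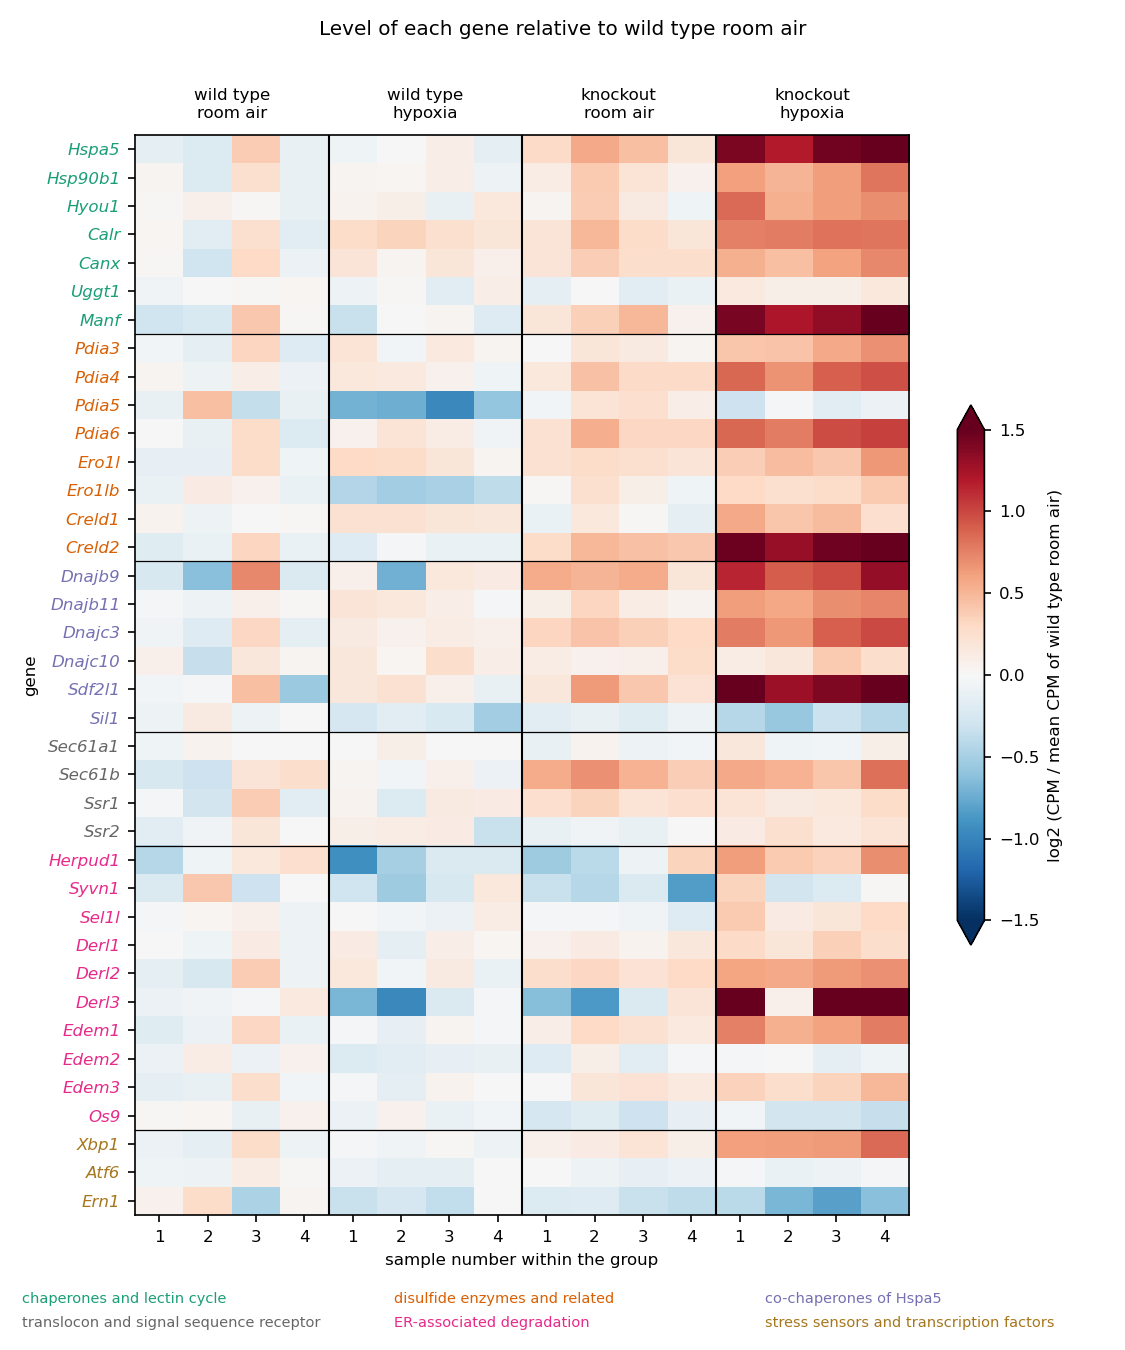
Level of each of the 38 genes (rows, ordered and coloured by role) in each of the 16 samples (columns), as log2 of its CPM over the mean CPM of the 4 wild type room air samples, with colours saturating at -1.5 and 1.5. The 4 knockout hypoxia samples are red for most chaperones, disulfide enzymes and co-chaperones, while Sec61a1, Edem2 and Atf6 stay pale in all 4 groups.

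All 7 chaperones and lectin-cycle genes rose in knockout hypoxia against knockout room air and 6 of 7 were higher than in wild type hypoxia. The shares of all genes higher in these comparisons were 7.93% and 11.0%. Hspa5, the main Hsp70 chaperone of the ER (chr2:34771970-34777547, plus strand, GRCm38), measured 544, 521, 784 and 555 CPM in room air and 575, 603, 646 and 545 CPM in hypoxia in wild type mice, and 735, 893, 819 and 682 CPM in room air and 1602, 1374, 1643 and 1894 CPM in hypoxia in knockout mice. All 4 knockout hypoxia samples lay above the other 12, and the 2 wild type groups overlapped. Hspa5 rose by 1.06 ± 0.13 (log2, SE) with hypoxia in knockout mice (adjusted p = 1.32e-05) and was 1.46 ± 0.13 higher than in wild type hypoxia (adjusted p = 2.57e-06). In wild type mice its log2 fold change was -0.02 ± 0.13 (adjusted p = 0.962).

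Manf, a small ER protein that binds Hspa5 and is secreted when ER calcium falls (chr9:106838312-106891979, minus strand), measured 48.5, 50.6, 78.6 and 60.3 CPM in room air and 47.1, 59.1, 61.4 and 51.9 CPM in hypoxia in wild type mice, and 67.3, 76.2, 84.0 and 62.0 CPM in room air and 160, 138, 150 and 188 CPM in hypoxia in knockout mice. Its knockout hypoxia samples were again above all others. The rise in knockout mice was 1.14 ± 0.14 (adjusted p = 2.41e-05) and the excess over wild type hypoxia 1.54 ± 0.14 (adjusted p = 5.79e-06). Hsp90b1, Hyou1 (a nucleotide exchange factor of Hspa5), calreticulin (Calr) and calnexin (Canx), which bind glycans of folding proteins, were between 0.45 and 0.63 higher than in wild type hypoxia on the log2 scale, with no overlap of the groups.

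Uggt1, the enzyme that adds back a glucose to misfolded glycoproteins so that the lectins bind them once more, was the member of this class with the largest p between genotypes in hypoxia. It measured 186, 193, 194 and 196 CPM in room air and 183, 195, 172 and 206 CPM in hypoxia in wild type mice, and 174, 193, 172 and 180 CPM in room air and 212, 204, 204 and 215 CPM in hypoxia in knockout mice. The hypoxia groups of the genotypes overlapped, with a difference of 0.14 ± 0.07 (adjusted p = 0.142). Its rise of 0.22 ± 0.07 in knockout mice (adjusted p = 0.0376) was lost in 14 of the 30 alternative analyses, and that of Canx, 0.31 ± 0.10 (adjusted p = 0.0428), in 16.

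**Figure D2:**
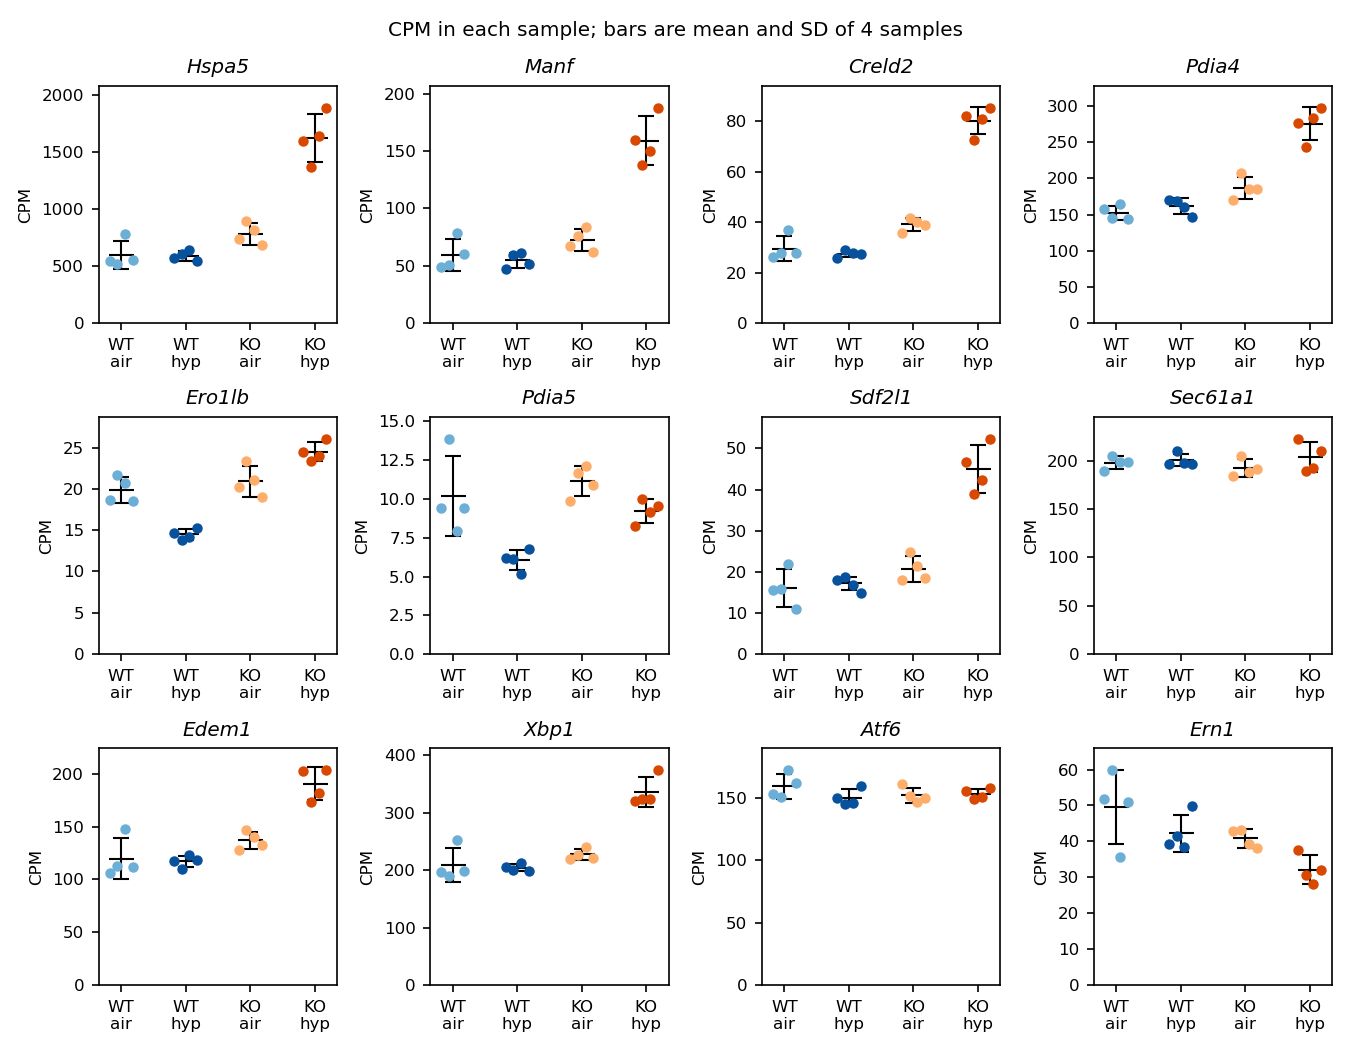
CPM (linear axes from 0) of 12 of the genes in each of the 4 samples of the 4 groups (WT, wild type; KO, knockout; air, room air; hyp, hypoxia), with bars for the mean and SD. For Hspa5, Manf, Creld2, Pdia4, Sdf2l1, Edem1 and Xbp1 the 4 knockout hypoxia points lie above all 12 others, Ero1lb and Pdia5 are lowest in wild type hypoxia, and the points of Sec61a1 and Atf6 overlap in all groups.

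Among the disulfide enzymes, 5 of 8 rose with hypoxia in knockout mice and 7 of 8 were higher than in wild type hypoxia, beside 7.93% and 11.0% of all genes. Creld2, an ER protein with disulfide isomerase activity and a target of Atf6 (chr15:88819646-88826683, plus strand), measured 26.1, 27.6, 36.8 and 27.6 CPM in room air and 25.9, 28.9, 27.6 and 27.5 CPM in hypoxia in wild type mice, and 35.6, 41.8, 40.2 and 39.0 CPM in room air and 82.0, 72.8, 81.1 and 85.5 CPM in hypoxia in knockout mice. The lowest knockout hypoxia value was far above the highest of any other group. Creld2 had the smallest p of all 38 genes in both comparisons, with a rise of 1.04 ± 0.10 in knockout mice (adjusted p = 6.86e-07) and an excess of 1.55 ± 0.10 over wild type hypoxia (adjusted p = 3.2e-08).

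Pdia4, a disulfide isomerase with several thioredoxin-like domains, measured 157, 145, 164 and 144 CPM in room air and 170, 169, 160 and 146 CPM in hypoxia in wild type mice, and 170, 207, 186 and 186 CPM in room air and 277, 244, 283 and 298 CPM in hypoxia in knockout mice. The 4 knockout room air samples were each above the 4 wild type room air samples, and the knockout hypoxia samples above both. The excess over wild type hypoxia was 0.77 ± 0.08 (adjusted p = 2.23e-05), and the difference in room air was 0.30 ± 0.08 (adjusted p = 0.074). Pdia6 and Pdia3, further isomerases of the same family, were 0.82 ± 0.10 and 0.44 ± 0.10 higher than in wild type hypoxia. Pdia3, which works with the lectins on glycoproteins, and Pdia6 also rose within the knockout, by 0.44 and 0.56.

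The 2 members that fell in wild type hypoxia both belong to this class. Ero1lb, the Ero1 oxidase form that is best known from insulin-secreting cells, measured 18.6, 21.7, 20.7 and 18.5 CPM in room air and 14.7, 13.8, 14.2 and 15.3 CPM in hypoxia in wild type mice, and 20.2, 23.4, 21.1 and 19.0 CPM in room air and 24.5, 23.4, 24.0 and 26.1 CPM in hypoxia in knockout mice. Every wild type hypoxia sample was below every other sample. The log2 fold change with hypoxia was -0.45 ± 0.09 in wild type mice (adjusted p = 0.00461) and 0.23 ± 0.09 in knockout mice (adjusted p = 0.0802). Pdia5, an isomerase of low level here, measured 9.42, 13.9, 7.96 and 9.45 CPM in room air and 6.22, 6.11, 5.19 and 6.79 CPM in hypoxia in wild type mice, and 9.88, 11.7, 12.1 and 10.9 CPM in room air and 8.23, 10.0, 9.15 and 9.57 CPM in hypoxia in knockout mice. Its wild type hypoxia samples were also the lowest 4. Pdia5 changed by -0.76 ± 0.15 in wild type mice (adjusted p = 0.00482), a call lost when only the compared groups were fitted (adjusted p = 0.0538), and its value in knockout mice was -0.27 ± 0.15 (adjusted p = 0.241). Between genotypes in hypoxia Ero1lb was 0.76 ± 0.09 higher in knockout mice (adjusted p = 6.22e-05) and Pdia5 0.60 ± 0.15 higher (adjusted p = 0.00998), and for Pdia5 the knockout hypoxia samples overlapped the wild type room air samples.

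Ero1l, the oxidase form of most tissues, was 0.27 ± 0.09 higher in knockout than wild type hypoxia (adjusted p = 0.0407), a call that was lost in 15 of 30 alternatives. Creld1, a membrane-bound relative of Creld2, was the class member with the largest p between genotypes in hypoxia. It measured 27.6, 25.2, 26.6 and 26.9 CPM in room air and 31.2, 31.1, 30.2 and 29.9 CPM in hypoxia in wild type mice, and 24.8, 29.7, 26.9 and 24.1 CPM in room air and 39.5, 35.6, 37.0 and 31.6 CPM in hypoxia in knockout mice. Both hypoxia groups lay above the room air group of their genotype, by 0.20 ± 0.09 in wild type (adjusted p = 0.222) and 0.45 ± 0.08 in knockout mice (adjusted p = 0.0011).

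The co-chaperones split. Sdf2l1, a partner of the J-domain protein Dnajb11, measured 15.6, 15.7, 22 and 10.9 CPM in room air and 18, 18.8, 16.9 and 14.9 CPM in hypoxia in wild type mice, and 18.1, 24.9, 21.3 and 18.6 CPM in room air and 46.6, 39.0, 42.2 and 52.4 CPM in hypoxia in knockout mice. Its knockout hypoxia samples were above all others, by 1.12 ± 0.16 within the knockout (adjusted p = 7.72e-05) and by 1.40 ± 0.16 over wild type hypoxia (adjusted p = 4.68e-05). Dnajc3 (p58IPK), a J-domain protein that delivers unfolded chains to Hspa5, measured 272, 247, 350 and 257 CPM in room air and 310, 294, 305 and 296 CPM in hypoxia in wild type mice, and 351, 379, 361 and 347 CPM in room air and 478, 443, 525 and 557 CPM in hypoxia in knockout mice. Without overlap, it was 0.73 ± 0.10 higher than in wild type hypoxia (adjusted p = 0.000129).

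Dnajb11, a J-domain partner of Hspa5 in the ER lumen, was 0.55 ± 0.08 higher than in wild type hypoxia and rose by 0.52 ± 0.08 within the knockout. Dnajb9, which recruits Hspa5 to Ire1, was 1.15 ± 0.24 higher than in wild type hypoxia (adjusted p = 0.00464). Within the knockout its difference, 0.64 ± 0.24, did not pass the test (adjusted p = 0.0789) although the 2 groups did not overlap. Dnajc10, a J-domain reductase of disulfides in proteins due for degradation, measured 141, 105, 151 and 138 CPM in room air and 151, 137, 161 and 143 CPM in hypoxia in wild type mice, and 145, 140, 141 and 162 CPM in room air and 145, 150, 176 and 160 CPM in hypoxia in knockout mice. All 4 groups overlapped and no comparison was called. Sil1, which exchanges the nucleotide of Hspa5, was the 1 member lower with hypoxia in knockout mice. It fell by 0.30 ± 0.08 there (adjusted p = 0.0177), with all 4 samples below those of room air. In wild type mice the value was alike, -0.29 ± 0.08 (adjusted p = 0.0551), and the difference between the effects was -0.01 ± 0.12 (adjusted p = 0.979).

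The translocon showed the fewest calls, with 0 of 4 called for hypoxia in knockout mice and 1 of 4 between genotypes in hypoxia. With only 4 genes, these counts cannot be told from the 7.93% and 11.0% of all genes that were higher there. Sec61b, a small subunit of the channel, measured 11.5, 11.0, 15.6 and 16.3 CPM in room air and 14.0, 13.2, 14.3 and 12.8 CPM in hypoxia in wild type mice, and 20.0, 21.9, 19.6 and 17.6 CPM in room air and 20.1, 19.6, 18.1 and 24.1 CPM in hypoxia in knockout mice. The knockout samples lay above the wild type samples at both oxygen levels, by 0.55 ± 0.13 in room air (adjusted p = 0.0637) and 0.60 ± 0.13 in hypoxia (adjusted p = 0.00382). The log2 fold change of hypoxia in knockout mice was 0.06 ± 0.13 (adjusted p = 0.821).

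Sec61a1, the pore subunit, measured 189, 205, 199 and 199 CPM in room air and 197, 210, 198 and 197 CPM in hypoxia in wild type mice, and 184, 205, 188 and 192 CPM in room air and 223, 189, 193 and 210 CPM in hypoxia in knockout mice. The groups overlapped in all comparisons, and the genotype difference in hypoxia was 0.02 ± 0.07 (adjusted p = 0.827). Ssr2, a subunit of the complex that helps signal sequences through the channel, measured 79.7, 85.7, 101 and 88.6 CPM in room air and 94.6, 96.1, 96.9 and 70.2 CPM in hypoxia in wild type mice, and 82.2, 85.4, 82.4 and 89.2 CPM in room air and 96.3, 105, 98 and 102 CPM in hypoxia in knockout mice. Sample 4 of wild type hypoxia was the lowest, and no comparison was called. Ssr1, of the same complex, was not called either (0.16 ± 0.11 between genotypes in hypoxia, adjusted p = 0.305).

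Of the 10 degradation genes, 5 rose with hypoxia in knockout mice and 7 were higher than in wild type hypoxia, beside 7.93% and 11.0% of all genes. Edem1, a mannose-trimming protein that marks glycoproteins for removal, measured 106, 113, 148 and 112 CPM in room air and 117, 110, 123 and 118 CPM in hypoxia in wild type mice, and 128, 147, 140 and 133 CPM in room air and 203, 173, 182 and 204 CPM in hypoxia in knockout mice. The knockout hypoxia samples were above all others, 0.71 ± 0.10 over wild type hypoxia (adjusted p = 0.000146). Its relative Edem3 was 0.39 ± 0.09 higher (adjusted p = 0.00496), and Edem2 was at 0.10 ± 0.08, not called (adjusted p = 0.388).

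Derl2, a membrane protein of the exit channel, measured 49.1, 45.8, 70.8 and 51.4 CPM in room air and 60.4, 52.8, 59.4 and 50.7 CPM in hypoxia in wild type mice, and 65.1, 67.5, 63.1 and 66.8 CPM in room air and 82.0, 80.6, 84.2 and 87.0 CPM in hypoxia in knockout mice. It was 0.58 ± 0.10 above wild type hypoxia without overlap (adjusted p = 0.00127). Its relative Derl1 was 0.24 ± 0.07 higher (adjusted p = 0.0297), a call lost in 7 of 30 alternatives. Derl3, the relative found mainly in secretory cells and named here after its values were seen, measured 0.816, 0.837, 0.860 and 0.962 CPM in room air and 0.541, 0.443, 0.747 and 0.848 CPM in hypoxia in wild type mice, and 0.556, 0.478, 0.747 and 0.992 CPM in room air and 3.65, 0.919, 2.60 and 3.17 CPM in hypoxia in knockout mice. All 4 knockout hypoxia samples were above the wild type hypoxia samples, and sample 2 overlapped both room air groups. The fold change over wild type hypoxia was the largest of the 38, 2.00 ± 0.37 (adjusted p = 0.00153), at the lowest level among them and with the highest coefficient of variation in knockout hypoxia, 46.1%.

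Herpud1, which gathers the degradation complex and was likewise named after its values were seen, measured 163, 210, 245 and 262 CPM in room air and 116, 156, 190 and 190 CPM in hypoxia in wild type mice, and 152, 166, 209 and 278 CPM in room air and 341, 288, 280 and 357 CPM in hypoxia in knockout mice. Its knockout hypoxia samples were above all others although the rest ranged widely. The excess over wild type hypoxia was 0.96 ± 0.20 (adjusted p = 0.00362), and the rise within the knockout, 0.66 ± 0.19 (adjusted p = 0.0282), was lost in 8 of 30 alternatives. Sel1l, the adaptor of the Hrd1 ubiquitin ligase, was 0.26 ± 0.08 higher than in wild type hypoxia (adjusted p = 0.0216). Syvn1, which encodes the Hrd1 ligase itself, measured 23.2, 35.8, 21.8 and 27.1 CPM in room air and 22, 18.6, 22.8 and 30.2 CPM in hypoxia in wild type mice, and 21.4, 20.1, 23.3 and 15.1 CPM in room air and 34.1, 22.3, 23.4 and 27.4 CPM in hypoxia in knockout mice. All of its groups overlapped, with a genotype difference in hypoxia of 0.20 ± 0.18 (adjusted p = 0.459). Os9, a lectin that hands misfolded glycoproteins to Sel1l, was at -0.19 ± 0.08 in the same comparison (adjusted p = 0.0824).

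Of the 3 sensors and factors, Xbp1 was higher and Ern1 lower between genotypes in hypoxia, and Atf6 was not called in any comparison. Xbp1, whose mRNA is spliced by Ire1 into the form that encodes the active factor (chr11:5520659-5525893, plus strand), measured 196, 189, 252 and 198 CPM in room air and 205, 201, 212 and 198 CPM in hypoxia in wild type mice, and 220, 227, 241 and 221 CPM in room air and 320, 323, 324 and 375 CPM in hypoxia in knockout mice. All knockout hypoxia samples were above all others. Xbp1 rose by 0.56 ± 0.09 within the knockout (adjusted p = 0.000175) and was 0.72 ± 0.09 above wild type hypoxia (adjusted p = 6.64e-05). Gene counts do not separate spliced from unspliced Xbp1 mRNA.

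Atf6, a sensor that is cut free of the membrane under stress, measured 153, 151, 173 and 162 CPM in room air and 150, 145, 146 and 160 CPM in hypoxia in wild type mice, and 161, 152, 147 and 150 CPM in room air and 156, 149, 151 and 158 CPM in hypoxia in knockout mice. The groups overlapped throughout, with a genotype difference in hypoxia of 0.03 ± 0.07 (adjusted p = 0.809). Ern1, the Ire1 sensor, measured 51.7, 60.0, 35.6 and 51.0 CPM in room air and 39.2, 41.6, 38.4 and 49.8 CPM in hypoxia in wild type mice, and 43.0, 43.3, 39.2 and 38.1 CPM in room air and 37.6, 30.7, 28.1 and 32.1 CPM in hypoxia in knockout mice. Its knockout hypoxia samples were the 4 lowest of the hypoxia samples, with a log2 fold change of -0.40 ± 0.13 against wild type hypoxia (adjusted p = 0.0327). That call was lost in 6 of the 30 alternatives.

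**Figure D3:**
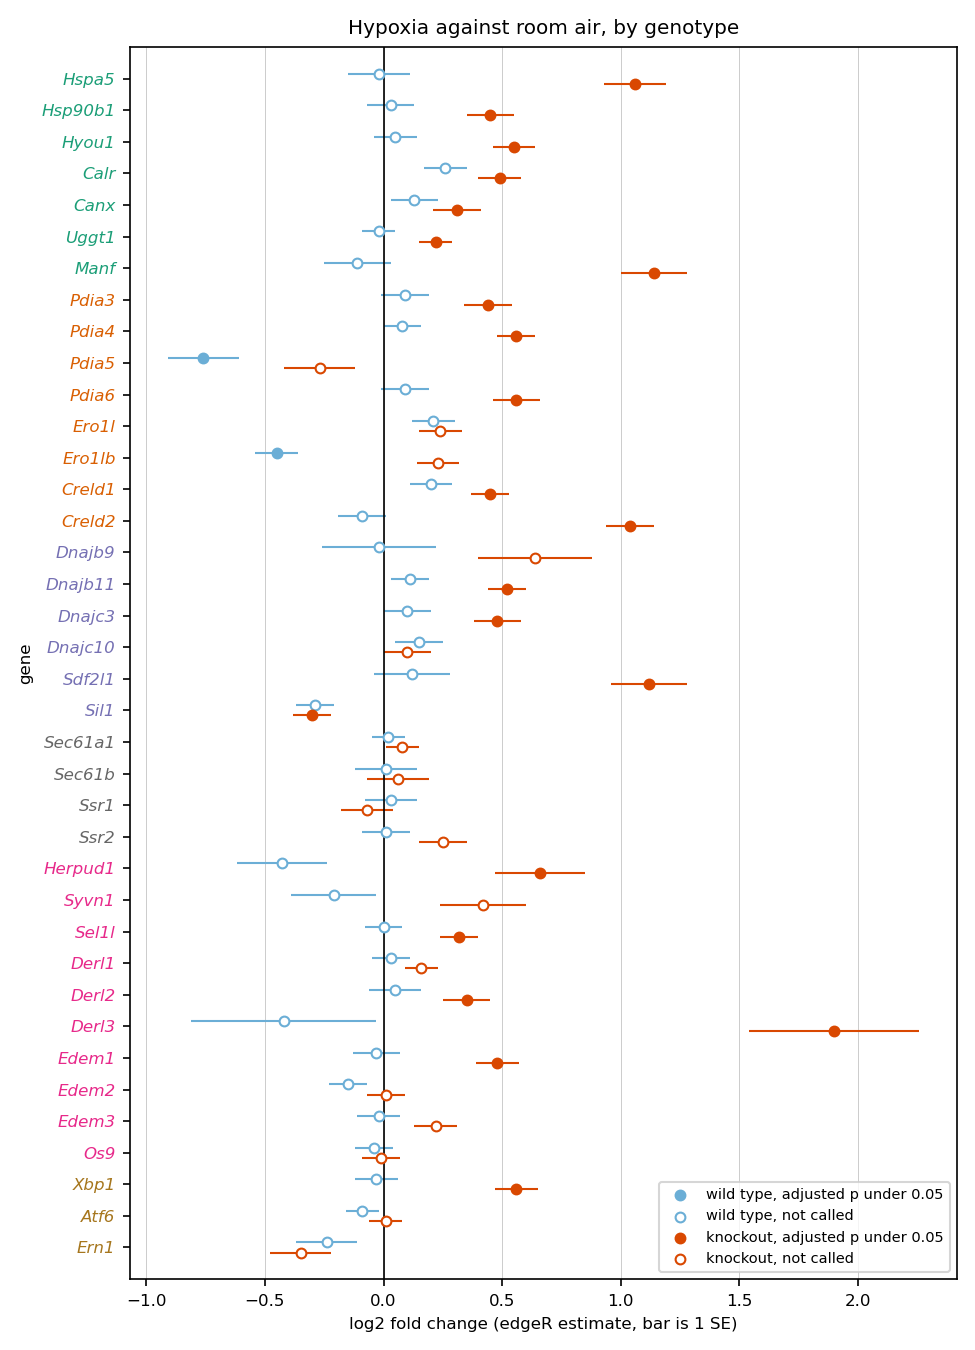
Log2 fold change of hypoxia against room air with its SE (horizontal axis) for each of the 38 genes, in wild type (blue) and in knockout mice (orange), which share no samples. Filled points passed adjusted p under 0.05, and gene names are coloured by role in the order chaperones, disulfide enzymes, co-chaperones, translocon, degradation, sensors. Pdia5 (-0.76) and Ero1lb (-0.45) are the filled wild type points, while Hspa5, Manf, Creld2 and Sdf2l1 lie between 1.04 and 1.14 in knockout mice.

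The effect of hypoxia itself differed between the genotypes for Creld2 by 1.13 ± 0.14 (adjusted p = 0.00148), for Manf by 1.24 ± 0.20 (adjusted p = 0.00813), for Hspa5 by 1.08 ± 0.18 (adjusted p = 0.00872), for Ero1lb by 0.69 ± 0.13 (adjusted p = 0.0168) and for Xbp1 by 0.59 ± 0.12 (adjusted p = 0.0356). For Creld2, Manf, Hspa5 and Xbp1 the knockout value was a rise and the wild type value was near 0, while for Ero1lb the wild type value was a fall. For the other 33 genes the difference did not pass the test, which includes Sdf2l1 at 1.00 ± 0.23 (adjusted p = 0.0528) and Derl3 at 2.32 ± 0.53 (adjusted p = 0.0544), so that their hypoxia effects are not shown to depend on genotype. Without samples 1 and 2 of knockout hypoxia and samples 3 and 4 of knockout room air, an alternative chosen after the data were seen, 1 of the 5 calls was left, that of Creld2. Over the alternatives in which this difference was fitted, which leaves out the fit of only the compared groups, the call of Xbp1 was lost in 15 and that of Ero1lb in 5.

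In room air none of the 38 genes was called between the genotypes in the main fit of 4 with 4 samples. This depended on the test, as DESeq2 and limma voom called 6 each, where 6.38% and 6.18% of all genes were called. It also depended on sample 3 of the wild type group. That sample had the highest level of its group for 24 of the 38 genes, and its median over the 38 was 0.18 on the log2 scale relative to the wild type room air mean, against -0.08 to -0.07 in the other 3. The 4 knockout room air samples lay between 0.07 and 0.21. Without it, 18 of the 38 were higher and 2 lower in knockout room air, where 8.13% of all genes were higher and 5.68% lower. Creld2 was then 0.53 ± 0.08 higher (adjusted p = 0.000689), Hspa5 0.53 ± 0.11 (adjusted p = 0.00358), Pdia6 0.46 ± 0.09 (adjusted p = 0.00353), Dnajc3 0.48 ± 0.08 (adjusted p = 0.00123) and Xbp1 0.23 ± 0.07 (adjusted p = 0.043), while Ern1 was at -0.41 ± 0.11 (adjusted p = 0.0178) and Os9 at -0.25 ± 0.08 (adjusted p = 0.0441). Without this sample, hypoxia in wild type mice raised Calr by 0.35 ± 0.08 (adjusted p = 0.0156) and Ero1l by 0.31 ± 0.08 (adjusted p = 0.0282), where 3.62% of all genes were higher and 2.98% lower. Sil1 then changed by -0.31 ± 0.09 (adjusted p = 0.0427), beside Pdia5 and Ero1lb. Without sample 3 of wild type room air, 24 of the 38 were higher and 2 lower in knockout hypoxia against knockout room air. Against wild type hypoxia 26 were higher and 1 lower. In either direction 19.2% and 27.3% of all genes were called in these comparisons.

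**Figure D4:**
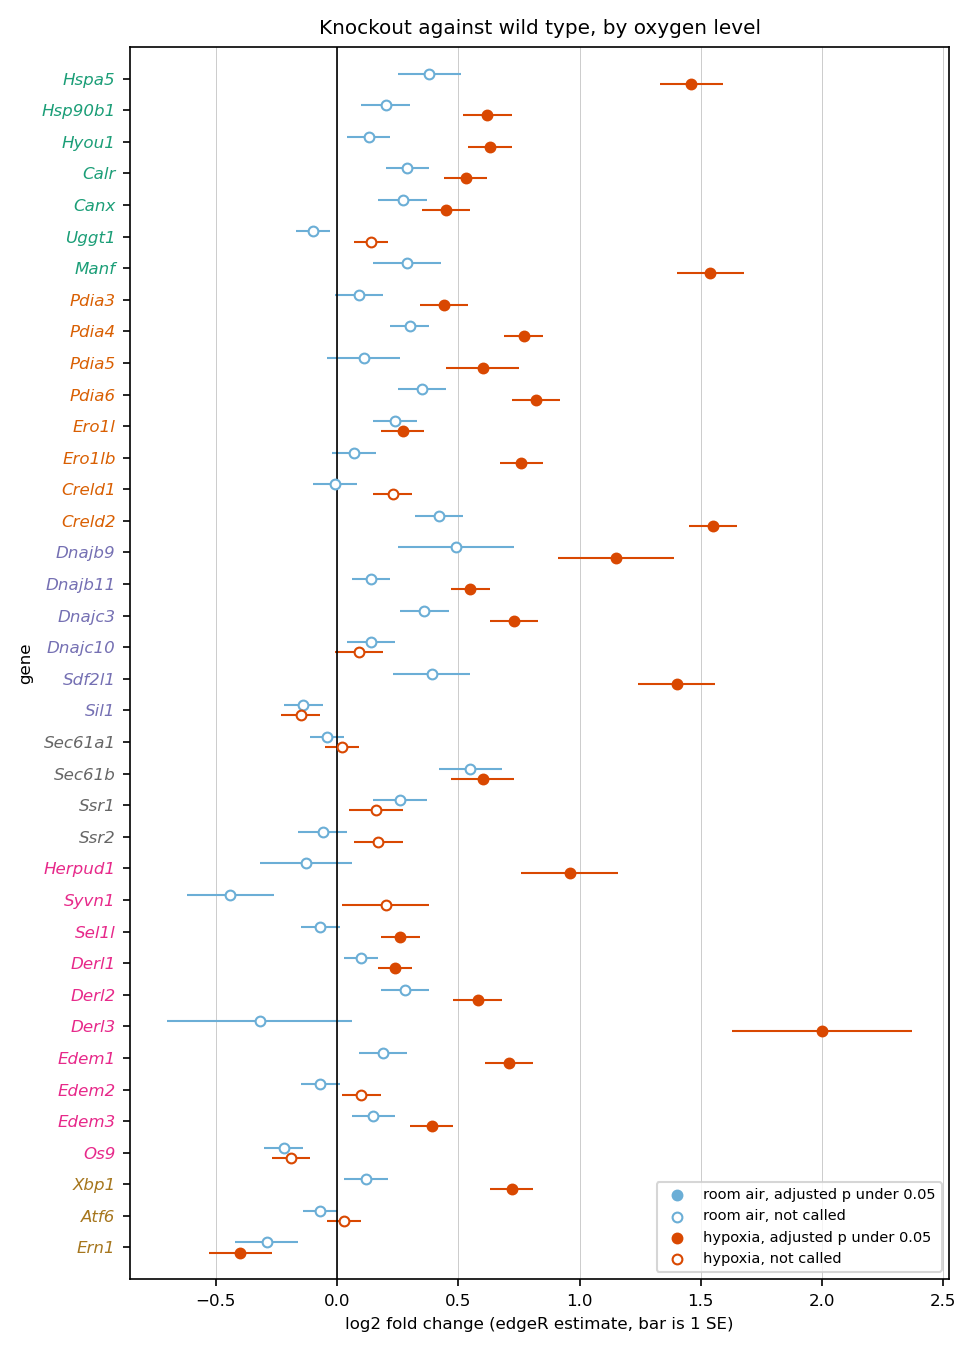
Log2 fold change of knockout against wild type with its SE (horizontal axis) for each of the 38 genes, in room air (blue) and in hypoxia (orange), which share no samples. Filled points passed adjusted p under 0.05, and gene names are coloured by role in the order chaperones, disulfide enzymes, co-chaperones, translocon, degradation, sensors. All room air points are open, and the hypoxia points of Hspa5, Manf, Creld2, Sdf2l1 and Derl3 lie at 1.40 or above.

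Per kilobase of exon, which allows levels of different genes to be compared, Hsp90b1 was the most abundant of the 38 in wild type room air, with a mean level of 201 CPM per kb, followed by Calr at 157 and Hspa5 at 142. In knockout hypoxia the order was Hspa5 at 385, Hsp90b1 at 313 and Calr at 271. Derl3 was the lowest in each group, at 0.436 CPM per kb in wild type room air and 1.3 in knockout hypoxia. The coefficient of variation between the 4 samples of a group had a median over the 38 genes of 14.2% and 7.22% in the wild type groups (room air and hypoxia) and of 6.90% and 8.27% in the knockout groups.

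Further genes of the same pathways were counted from 4 lists. Of 38 further folding enzymes tested, 10 were higher and 3 lower in knockout than wild type hypoxia, with a median log2 fold change of 0.12. In that comparison, also used for the lists that follow, 11.0% of all genes were higher and 12.1% lower. Serpinh1, the collagen chaperone Hsp47, was 1.00 ± 0.16 higher (adjusted p = 0.000514), Hspa13 0.71 ± 0.12 (adjusted p = 0.00104) and Fkbp14, a prolyl isomerase of collagen folding, 1.43 ± 0.26 (adjusted p = 0.00196). Erp29 was at -0.02 ± 0.09 (adjusted p = 0.897) and Mesdc2 at 0.02 ± 0.08 (adjusted p = 0.88), neither called. Of 26 further genes of the translocon, signal peptidase and oligosaccharyltransferase, 10 were higher and 1 lower, with a median of 0.25. They included Ostc, of the oligosaccharyltransferase, at 0.66 ± 0.11, Srprb, of the signal recognition particle receptor, at 0.42 ± 0.07, and Spcs2, of the signal peptidase, at 0.50 ± 0.09, while Srpr was at -0.02 ± 0.06 (adjusted p = 0.89). Of 30 further degradation genes, 10 were higher and 0 lower, with a median of 0.09, led by the ubiquitin-conjugating enzyme Ube2g2 at 0.69 ± 0.11 (adjusted p = 0.000361), Erlin1 at 0.64 ± 0.13 and Selk at 0.59 ± 0.12. For hypoxia in knockout mice these 3 lists held 4, 2 and 2 genes that rose and 1, 0 and 0 that fell, where 7.93% of all genes rose, so that these counts were near the background.

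Of 23 further sensors and factors of the unfolded protein response, 4 were higher and 0 lower in knockout than wild type hypoxia, where 11.0% of all genes were higher. With hypoxia, 4 rose and 2 fell in knockout mice, where 7.93% of all genes rose and 9.10% fell. In wild type mice 1 rose, where 2.67% of all genes did. That gene, Trib3, a pseudokinase induced downstream of Atf4, rose by 0.86 ± 0.20 in wild type (adjusted p = 0.0153) and by 1.21 ± 0.20 in knockout mice (adjusted p = 0.00031). Compared with wild type hypoxia, Ddit3, which encodes the stress factor Chop, was 1.07 ± 0.13 higher in knockout hypoxia (adjusted p = 7.2e-05). Ppp1r15a, which restores translation after Perk signalling, was 0.54 ± 0.13 higher in that comparison (adjusted p = 0.00831). Sec23b, of the vesicle coat that leaves the ER, was 0.32 ± 0.08 higher (adjusted p = 0.0084). Atf4, the factor made under Perk signalling, was not called there (0.02 ± 0.10, adjusted p = 0.901), nor was Creb3 (0.01 ± 0.11, adjusted p = 0.952). In both genotypes the Atf4 levels of the hypoxia samples lay below those of the room air samples, although in wild type mice the fall was not called. It ranged from 180 to 215 CPM in room air and 128 to 176 CPM in hypoxia in wild type mice. In knockout mice it ranged from 203 to 255 CPM in room air and 154 to 173 CPM in hypoxia. The effect of hypoxia differed between the genotypes for Ddit3 (0.84 ± 0.19, adjusted p = 0.0455) and, among the further folding enzymes, for Txndc11 (0.65 ± 0.14, adjusted p = 0.0445).

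Markers of other cells and of stress moved with some of these results. A list of 10 heat shock genes, a group known to answer to Hsf1, held cytosolic ones and the mitochondrial Hspd1 and Hspe1. Of these, 9 were higher in knockout than wild type hypoxia, where 11.0% of all genes were higher. Hypoxia in knockout mice raised 4 of them, where 7.93% of all genes rose. Their summed level in wild type mice ranged from 448 to 1147 CPM in room air and from 375 to 746 CPM in hypoxia. In knockout mice it ranged from 539 to 1471 CPM in room air and from 1580 to 2806 CPM in hypoxia. Sample 3 of wild type room air, at 1147, was the highest of its group there too. Their part in the results for the 38 genes was not tested. The 23 pancreatic acinar genes in the table summed to 2870, 218, 31.9 and 10.0 CPM in samples 1 to 4 of knockout hypoxia and to at most 16.1 CPM in the other 12 samples. Of the 38 genes, 28 were higher and 10 lower in sample 4 than in sample 1. These are single samples, which also differed in heat shock sum (2806 and 2386 CPM), and all genes were not counted in this way. The part of pancreatic RNA in the results was not tested. Without samples 1 and 2, 17 of the 38 genes rose with hypoxia in knockout mice, and 23 were higher and 2 lower than in wild type hypoxia, where 11.2% and 17.1% of all genes were called in either direction. The medians over the 38 were 0.38 and 0.58 there. Thymocyte genes summed to 98.5 CPM at most, in sample 3 of knockout room air, and to between 12.2 and 17.2 CPM in knockout hypoxia. Without samples 3 and 4 of knockout room air, 15 of the 38 rose with hypoxia in knockout mice, where 9.73% of all genes were called. Without all 4 of these samples the number was 11, and 22 were higher than in wild type hypoxia, where 6.81% and 14.1% of all genes were called. The medians over the 38 were then 0.35 and 0.58, beside 0.39 and 0.54 with all samples.

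**Figure D5:**
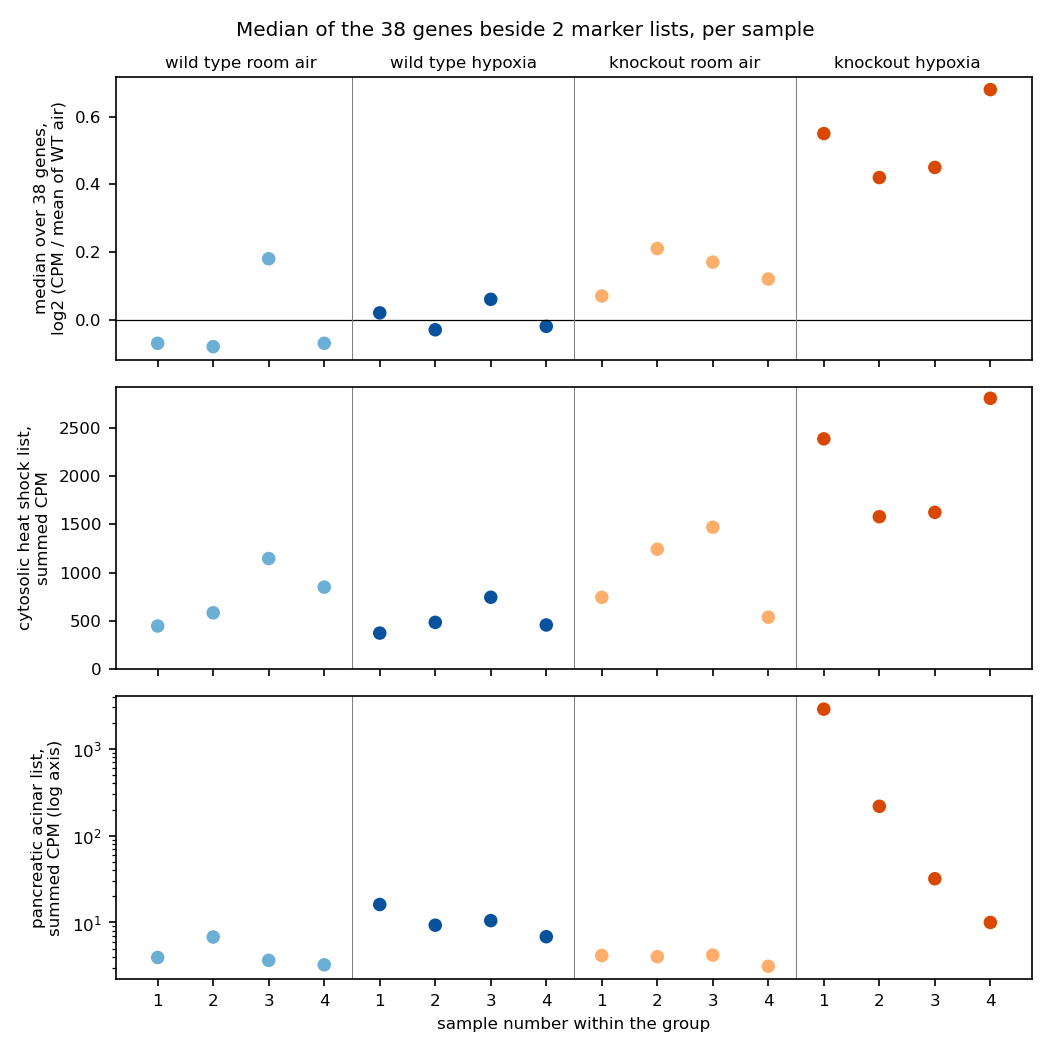
Per sample (horizontal axis, 4 in each group): the median over the 38 genes of log2 CPM relative to the wild type room air mean (top), the summed CPM of 10 heat shock genes (middle) and the summed CPM of 23 pancreatic acinar genes (bottom, log axis). The middle panel is labelled cytosolic but includes the mitochondrial Hspd1 and Hspe1. The 4 knockout hypoxia samples lie highest in the top and middle panels, at 0.42 to 0.68 and 1580 to 2806 CPM, while the acinar sum falls from 2870 CPM in sample 1 to 10.0 CPM in sample 4.

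Plasma cells are rich in Xbp1 and Derl3. Without those 2 genes their 6 markers in the table summed in wild type mice to between 277 and 338 CPM in room air and 289 and 316 CPM in hypoxia, and in knockout mice to between 273 and 288 CPM in room air and 261 and 276 CPM in hypoxia. Most of that sum came from Sdc1 (224 to 286 CPM over the 16 samples), which epithelial cells express too, so the sum says little about plasma cells. Igj, the antibody J chain, had a log2 fold change of 0.26 ± 0.34 between genotypes in hypoxia (adjusted p = 0.617). Mzb1, an ER protein of B and plasma cells, was lower in knockout than wild type hypoxia by a log2 fold change of -0.99 ± 0.26 (adjusted p = 0.0117). All 6 B cell genes and all 5 T cell genes tested fell with hypoxia in knockout mice, where 9.10% of all genes fell. So did 6 of 10 heart muscle and 4 of 6 adipocyte genes. Between genotypes in hypoxia, 4 of 7 fibroblast and smooth muscle genes were lower in knockout mice, and of 5 endothelial genes 3 were higher and 1 lower. Of all genes, 11.0% were higher and 12.1% lower there. Skeletal muscle genes summed to 1507 CPM in sample 1 of wild type room air and to at most 110 CPM in the other 15 samples. The part of these cell types in the results was not tested.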

How the data were processed

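Raw read counts per gene were deposited. Per the labels' protocols, the authors depleted total RNA of rRNA and used a directional library kit. The submitters' processing notes name Trim Galore, TopHat2, HTSeq and mm10. Tool versions and the strand option of the counter were not given in the sources used here, so reads from overlapping genes on opposite strands cannot be told apart. The 20 libraries were reduced to 16 samples by adding the A and B libraries of the same number, which differed by more than sampling noise (chi-square per degree of freedom 2.46 to 3.51 over 5000 genes). The labels do not say what the letters mean. Such pairs occurred only in room air, in samples 2 and 3 of wild type and samples 2 and 4 of knockout mice. Paired libraries were therefore not balanced over the oxygen levels. Each paired library correlated best with its partner. The 5 lines that name no gene stayed out.

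Counts were filtered with filterByExpr (minimum count 10, minimum total 15), scaled by TMM and fitted with edgeR 4.0.16 (R 4.3.3, robust quasi-likelihood, two-sided, all 4 groups in 1 fit), and the script was tested on simulated data. Log2 fold changes carry the SE of the fit. DESeq2 1.42.0 and limma 3.58.1 served as alternatives. The SE includes the spread between samples, and the limit for a count of 0 covers counting error only.

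The 38 genes, their roles and the other lists were chosen with earlier results of these data known. Values in every sample are given for the 2 genes of each role with the smallest p and the 1 with the largest p between genotypes in hypoxia, for those called in wild type hypoxia or for the difference between the effects, and for Hspa5, Creld2, Sdf2l1, Xbp1, Atf6 and Ern1. From each further list come the 3 called genes with the smallest p and up to 2 not called. Promoters are from RefSeq (GRCm38.p6) and gene positions from GENCODE (GRCm38), both 1-based.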

Additional observations from a re-analysis of the deposited data

Results flagged for a closer look

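Among 152 checks of a gene in a group, 9 found a sample far from the other 3 of its group by Dixon's criterion, in 5 different samples, and chance alone gives about 1 in 20. Sample 3 of wild type room air was high for Hspa5 (784 CPM, the others 521 to 555), Ero1l (54.6, the others 41.2 to 43.1), Creld2 (36.8, the others 26.1 to 27.6) and Xbp1 (252, the others 189 to 198). Sample 2 of wild type hypoxia was low for Dnajb9 (22.4 CPM, the others 38.8 to 41.0) and high for Sec61a1 (210, the others 197 to 198). Sample 4 of wild type hypoxia was low for Ssr2 (70.2 CPM, the others 94.6 to 96.9), and sample 4 of knockout room air was low for Dnajb9 (41.7, the others 52.2 to 54.2). Sample 4 of knockout hypoxia was high for Xbp1 (375 CPM, the others 320 to 324).

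The effect of hypoxia differed between the genotypes, by the test of the difference itself, for Hspa5 (log2 1.08), Manf (1.24), Ero1lb (0.69), Creld2 (1.13) and Xbp1 (0.59).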

How the results depend on the processing

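No call on the 38 genes changed sign in any of the 30 alternatives. For knockout against wild type in hypoxia (27 called) 22 calls were kept in every alternative, and for hypoxia in knockout mice (22 called) 10 were, Hspa5, Manf, Pdia4, Pdia6, Creld2, Dnajb11, Dnajc3, Sdf2l1, Derl3 and Xbp1. Without samples 1 and 2 of knockout hypoxia and 3 and 4 of knockout room air, chosen after the data were seen, the latter count was 11. There 6.81% of all genes were called, against 17% with all samples. For hypoxia in wild type mice (2 called) it was 1 when only the compared groups were fitted, 4 without sample 3 of wild type room air and samples 1 and 2 of knockout hypoxia, and 2 to 5 when each sample was left out in turn. The share of all genes called was 4.98% in the main fit, and 2.6%, 5.72% and 3.04% to 6.6% in these alternatives. For the genotypes in room air (0 called) it was 2 with upper quartile scaling, 6 with DESeq2, 6 with limma voom, 3 with library A alone, 1 with the GC trend removed, 17 without sample 3 of wild type room air and samples 1 and 2 of knockout hypoxia, and 0 to 20 when each sample was left out. The share of all genes called was 0.0761% in the main fit. In the same order it was 0.717%, 6.38%, 6.18%, 1.32%, 0.323%, 12.7% and 0% to 13.8% in these alternatives. For the difference between the effects (5 called) it was 12 with DESeq2, 8 with the GC trend removed, 3 without sample 3 of wild type room air and samples 1 and 2 of knockout hypoxia, 1 without the 4 knockout samples above, and 3 to 6 when each sample was left out. The share of all genes called was 0.501% in the main fit. In the same order it was 3.02%, 1.11%, 0.149%, 0.081% and 0.164% to 0.788% in these alternatives. The cause of these changes was not tested, and the fits that left samples out also had fewer samples. With the replicate number as a block, 2 genes were called between genotypes in room air (1 with the GC trend also removed) and 8 for the difference between the effects. The shares of all genes called there were 1.51%, 0.228% and 0.996%. Same-numbered samples deviated together with r over 0.1 in 12 of 24 pairs (-0.33 to 0.46), and 4 of 16 samples correlated best with their own number. The labels do not say what a shared number means, and whether it marks a litter or day was not tested. The read number is lowest in sample 3 of wild type room air (9531270), and the level of Derl3 is the lowest of the 38.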
